A study of Arabidopsis thaliana with 30 samples.

Results

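Transcripts of the nuclear photosystem and electron transport genes were followed in Arabidopsis thaliana seedlings of the bdr1,2,3 triple mutant and of the wild type. The genes were chosen by name: the antenna proteins of photosystem I (LHCA), the minor antenna proteins of photosystem II (LHCB4 to LHCB7), the nuclear subunits of photosystem I (PSA) and photosystem II (PSB), the electron carriers between and after the photosystems, and the ATP synthase subunits ATPC1 and ATPD. The rule itself used no measured value. The set held 46 of the 33602 genes in the count tables: 6 LHCA, 6 minor LHCB, 12 PSA, 13 PSB, 7 electron transport and 2 ATP synthase genes. All 46 passed the filter on low counts in both experiments.

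The triple mutant carried T-DNA insertions in BDR1 (AT5G25520), BDR2 (AT5G11430) and BDR3 (AT2G25640), which encode proteins with a domain related to the transcription elongation factor TFIIS, and the wild type was Col-0. In the photomorphogenesis experiment, etiolated seedlings, 5 days old and raised in darkness at 21 °C, stayed in the dark or were given white light for 2 h or 4 h. In the heat shock experiment, 12-day-old seedlings grown at 12 °C in long days were moved to 27 °C for 4 h (heat) or stayed at 12 °C (cold). Each of the 10 groups had 3 libraries, 1 for each plate of whole seedlings, 30 libraries in all. The mutant has short roots and a seedling is a mixture of tissues, so fewer photosynthetic cells and less RNA per cell cannot be told apart in these values.

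The light reactions take place in the thylakoid membrane. Antenna proteins pass excitation energy to photosystem II, which oxidises water, and electrons then flow through the cytochrome b6f complex and plastocyanin to photosystem I, ferredoxin and ferredoxin:NADP+ oxidoreductase, while the ATP synthase uses the proton gradient. The reaction centre proteins are encoded in the chloroplast, and most antenna and peripheral subunits in the nucleus, where many of their genes are switched on by light through phytochromes and cryptochromes as a seedling turns green.

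A library held between 7517174 and 22888978 counts where light was given, and between 6823975 and 22458726 where temperature was changed. Levels are given as CPM, the count of a gene scaled to the size of its library, with TMM factors within an experiment. BDR1 had 1.65 to 3.65 CPM in the mutant libraries against 51.7 to 112 CPM in the wild type libraries. BDR2 fell in each of the 5 conditions, and BDR3 in all conditions but cold (adjusted p = 0.857). Replicates differed by more than counting error (chi-square over its degrees of freedom 2.02 to 15.4), so none was a copy of another. Replicate 1 of both heat groups stood apart on the first principal component of the heat shock libraries, at -39.8 against -31.6 in both other bdr1,2,3 heat libraries and at -34.2 against -24.3 and -22.8 in wild type heat.

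Light raised every one of the 46 genes in both genotypes. In darkness the 46 genes together took 0.43% ± 0.065 of the counts in bdr1,2,3 and 0.42% ± 0.012 in the wild type (SD, n = 3 each). After 2 h of light they took 2.49% ± 0.19 in bdr1,2,3 and 3.07% ± 0.19 in the wild type, and after 4 h 3.96% ± 0.34 in bdr1,2,3 and 4.67% ± 0.14 in the wild type. In the wild type the PSB genes summed to the most at both ends of the course, 1369 CPM in the dark and 13842 CPM at 4 h. The LHCA genes were behind the PSA and minor LHCB genes in the dark, with 555 CPM, and ahead of both at 4 h, with 10855 CPM. In bdr1,2,3 the LHCA genes summed to 605 CPM in the dark and 8474 CPM at 4 h.

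**Figure D1:**
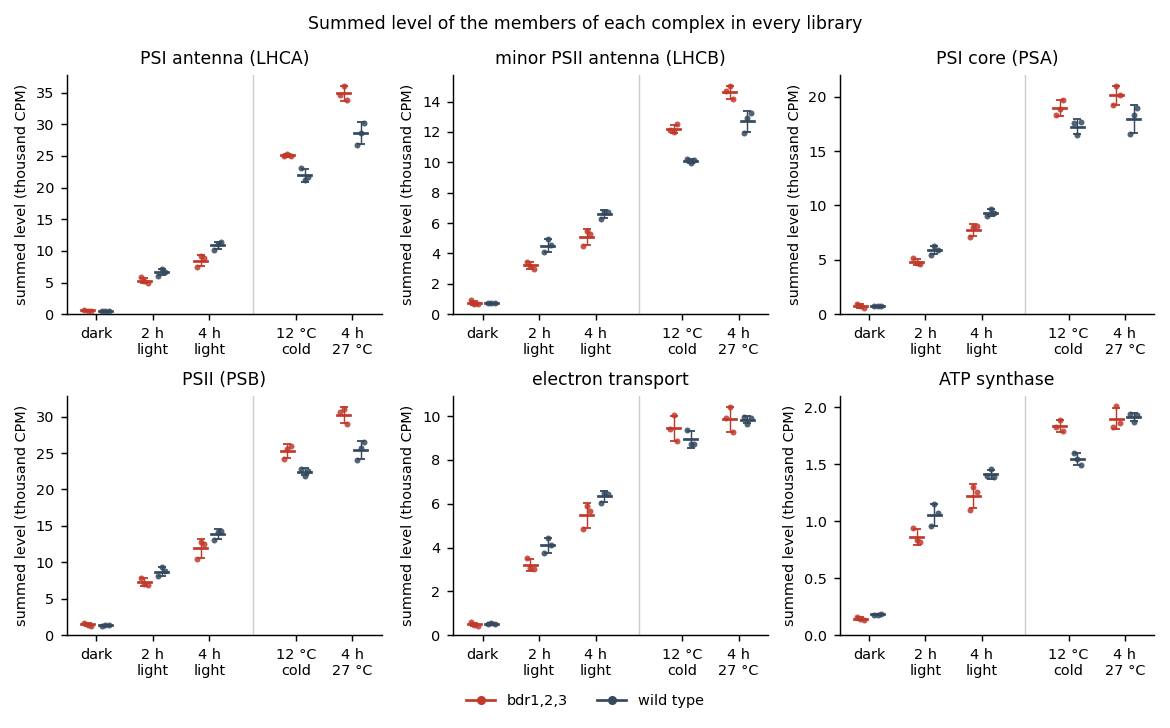
Summed CPM of each complex in every library, by condition, with bdr1,2,3 libraries left of wild type libraries and group means with SD as bars. The sums rise with light in each complex, with the wild type means above bdr1,2,3 at 2 and 4 h. In cold all bdr1,2,3 libraries lie above all wild type libraries for each complex but electron transport. In heat they do so for the LHCA, minor LHCB, PSA and PSB genes.

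Genes with an adjusted p under 0.05 in the quasi-likelihood test of edgeR, after Benjamini-Hochberg adjustment over all genes tested, are given as called. At 2 h, 46 of the 46 genes were called higher than in the dark in bdr1,2,3, where 33.9% of all tested genes were called higher and 33.8% lower, with a median log2 fold change of 2.90 against -0.01 over all tested genes. In the wild type at 2 h, 46 were again called higher (background 33.9% higher and 32.9% lower), with a median of 3.07 against 0.01. At 4 h, 46 were called higher in bdr1,2,3 (35.9% higher and 34.1% lower over all genes, median 3.66 against 0.01) and 46 in the wild type (35.2% and 34.9%, median 3.64 against 0.00). No dark library reached the level of any light library of the same genotype for any of the 46 genes. At 4 h all 46 changes were over 2-fold in both genotypes.

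LHCA1 (AT3G54890), an antenna protein of photosystem I, gave the largest response. It had 1614, 1443 and 1376 CPM in bdr1,2,3 at 2 h, against 34.2, 28.1 and 20.7 CPM in bdr1,2,3 in the dark. In the wild type it had 1769, 2095 and 1967 CPM at 2 h, against 24.6, 26.1 and 22.5 CPM in the dark. The light libraries lay far above the dark libraries in both genotypes, with log2 fold changes at 2 h of 5.72 ± 0.14 in bdr1,2,3 (SE, edgeR adjusted p = 1.24e-19) and 6.32 ± 0.15 in the wild type (adjusted p = 6.04e-20). At 4 h the changes from the dark were 6.46 in bdr1,2,3 and 7.09 in the wild type.

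PSB28 (AT4G28660), an assembly factor of photosystem II, and PSAH2 (AT1G52230), a photosystem I subunit at the docking site of the mobile antenna, followed. PSB28 changed by 5.27 in bdr1,2,3 and 5.12 in the wild type at 2 h (log2, SE 0.14 and 0.15). PSAH2 changed by 5.27 in bdr1,2,3 and 5.15 in the wild type (SE 0.19 each). PSB28 was nearly silent in the dark, at 3.71, 3.58 and 2.69 CPM in bdr1,2,3 and at 3.16, 3.86 and 5.59 CPM in the wild type. PSAH2 had the lowest dark level per kb of exon among the PSA genes. It was at 12.3 ± 5.1 CPM per kb in bdr1,2,3 and 17.8 ± 2.9 in the wild type (SD, n = 3 each). LHCB6 led the minor antenna genes with 4.17 in bdr1,2,3 and 4.55 in the wild type at 2 h, FD1, 1 of the 2 leaf ferredoxins, led the electron carriers with 4.07 in bdr1,2,3 and 3.63 in the wild type, and ATPD, the delta subunit, exceeded ATPC1 with 3.75 in bdr1,2,3 and 3.66 in the wild type.

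The smallest responses at 2 h were those of PSAE2, a stromal subunit of photosystem I, with 0.42 in bdr1,2,3 and 0.79 in the wild type, of LHCB4.1, with 0.97 in bdr1,2,3 and 1.38 in the wild type, and of PETC, the Rieske protein of the cytochrome b6f complex, with 1.06 in bdr1,2,3 and 1.44 in the wild type. Each of these 3 genes had the highest dark level per kb of exon within its complex: in wild type dark PSAE2 was at 137 ± 9.2, LHCB4.1 at 232 ± 3.4 and PETC at 142 ± 2.4 CPM per kb (SD, n = 3). PSBR, a photosystem II subunit, was the highest of the 46 in the dark, at 435 ± 85 CPM per kb in bdr1,2,3 and 415 ± 15 in the wild type, and PSB28 the lowest, at 3.38 ± 0.57 in bdr1,2,3 and 4.26 ± 1.27 in the wild type. At 4 h LHCA4 was the highest, at 2461 ± 299 CPM per kb in bdr1,2,3 and 3155 ± 192 in the wild type, and LHCB4.3 the lowest, at 40.0 ± 4.7 in bdr1,2,3 and 36.9 ± 2.5 in the wild type.

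**Figure D2:**
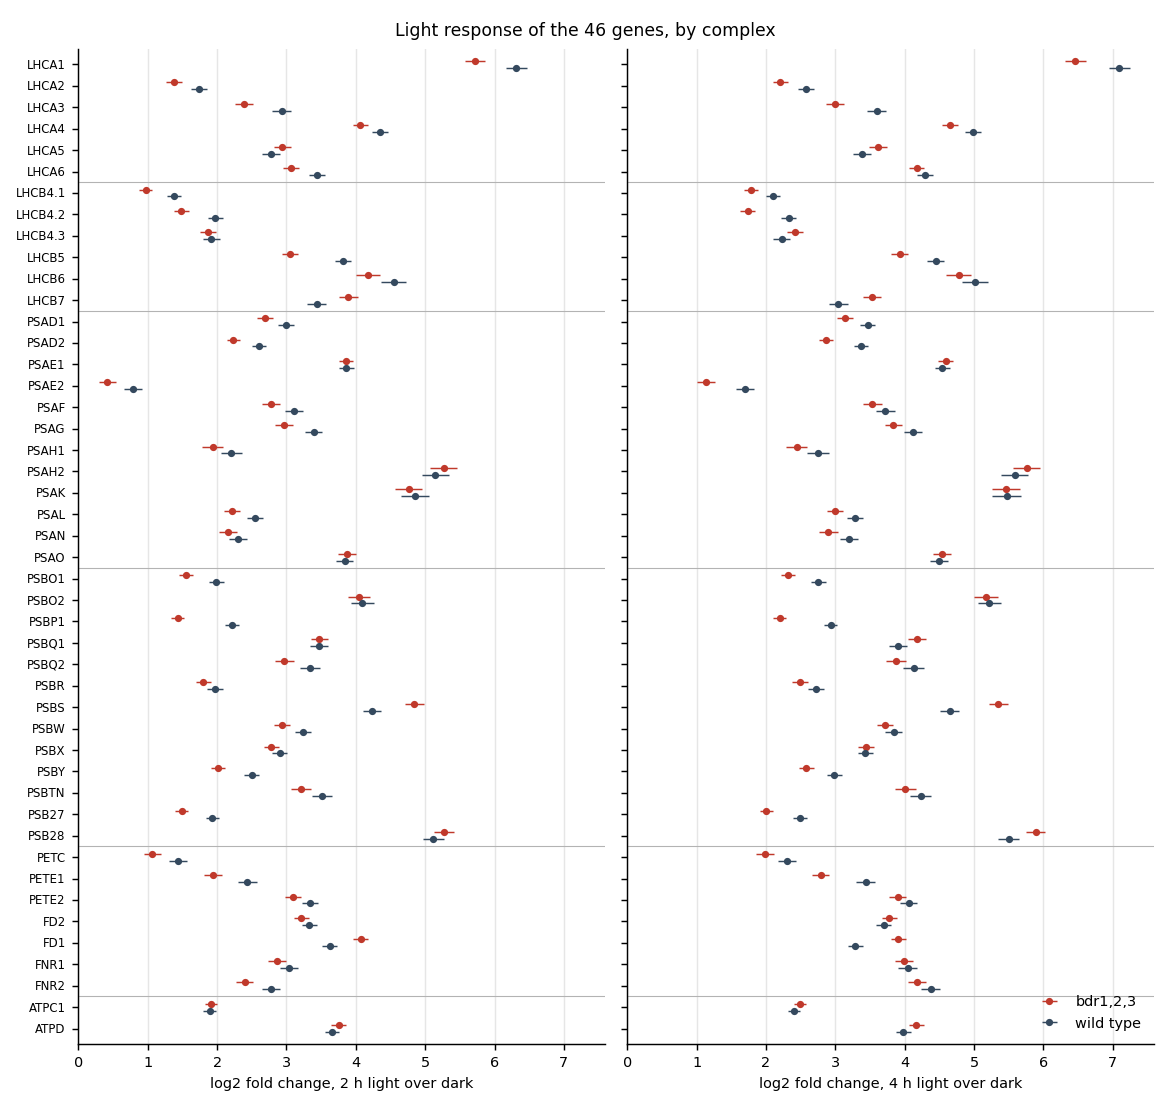
Log2 fold change of each of the 46 genes against the dark at 2 and 4 h of light, with bdr1,2,3 above the wild type for each gene and standard errors as bars, ordered by complex. All points lie above 0, from 0.42 for PSAE2 in bdr1,2,3 at 2 h to 7.09 for LHCA1 in the wild type at 4 h.

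Between 2 and 4 h most genes went on rising. In bdr1,2,3, 43 genes were higher at 4 h than at 2 h and 1 lower (background 22.5% higher and 19.3% lower), with a median of 0.70 against 0.01. In the wild type 44 were higher and 2 lower (23.4% and 22.6%), with a median of 0.64 against -0.02. FNR2 (AT1G20020), a leaf ferredoxin:NADP+ oxidoreductase, gained most, 1.78 ± 0.12 in bdr1,2,3 (SE, edgeR adjusted p = 5.3e-10) and 1.60 ± 0.11 in the wild type (adjusted p = 1.6e-09), and its paralog FNR1 gained 1.13 in bdr1,2,3 and 1.01 in the wild type. PSBO2, a subunit of the oxygen-evolving complex, gained 1.13 in bdr1,2,3 and 1.12 in the wild type.

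LHCB7, a rare antenna protein, fell by 0.37 in bdr1,2,3 (edgeR adjusted p = 0.00563) and by 0.39 in the wild type (adjusted p = 0.00281). It had 44.0, 53.4 and 55.3 CPM at 4 h in bdr1,2,3 against 72.3, 61.9 and 62.5 CPM at 2 h, and 45.9, 59.7 and 55.5 CPM at 4 h in the wild type against 69.8, 69.6 and 72.0 CPM at 2 h. FD1 fell by 0.34 in the wild type (adjusted p = 0.00474), and in bdr1,2,3 its change was -0.16 (adjusted p = 0.172). In bdr1,2,3 the genes not called were FD1 and LHCB4.2, whose change was 0.26 (adjusted p = 0.054).

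Light-responsive promoters often hold the G-box, which is bound by the light-signalling factors HY5 and the PIFs, and the I-box. The 250 bases before each gene start were searched on both strands in the TAIR10.1 assembly of RefSeq. The G-box (CACGTG) was in 11 of the 46 windows (23.9%), against 6.5% of the 27443 windows of protein-coding genes. The I-box, searched as its core GATAAG, was in 11 of the 46 windows (23.9%), against 12.3% of all windows. The CCAAT box was in 27 of the 46 (58.7%), against 12635 of the 27443. A TATA box, read as TATAAA, was in 22 of the 46 (47.8%), against 47.3% of all windows. The 3 windows printed next show a window with both boxes, a window of the gene that was highest in the light, and a window of a gene with a weak response, with G-box and I-box letters in capitals on whichever strand they were read.
PSBQ2 (chr4:2673244-2673493, minus strand): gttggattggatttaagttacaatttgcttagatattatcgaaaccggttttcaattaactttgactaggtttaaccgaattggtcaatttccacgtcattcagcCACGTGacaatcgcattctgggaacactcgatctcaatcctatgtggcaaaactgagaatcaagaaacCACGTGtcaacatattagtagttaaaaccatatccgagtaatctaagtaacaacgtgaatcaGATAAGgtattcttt
LHCA4 (chr3:17495034-17495283, minus strand): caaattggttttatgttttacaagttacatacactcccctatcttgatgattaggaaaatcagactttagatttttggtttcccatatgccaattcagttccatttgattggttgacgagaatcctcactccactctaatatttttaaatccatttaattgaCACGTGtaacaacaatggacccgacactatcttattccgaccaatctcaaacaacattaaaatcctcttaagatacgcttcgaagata
PETC (chr4:1439896-1440145, plus strand): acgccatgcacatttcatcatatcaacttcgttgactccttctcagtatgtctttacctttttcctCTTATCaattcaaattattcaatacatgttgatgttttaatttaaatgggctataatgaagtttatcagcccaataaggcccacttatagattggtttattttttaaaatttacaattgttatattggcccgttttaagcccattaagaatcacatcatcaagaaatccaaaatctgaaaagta

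PSBQ2, a further subunit of the oxygen-evolving complex, thus had 2 G-boxes and 1 I-box, LHCA4 had 1 G-box, and PETC had 1 I-box alone. The 11 genes with a G-box were LHCA4, LHCB4.1, LHCB6, LHCB7, PSAE2, PSAH2, PSBQ1, PSBQ2, PSBTN, PSB28 and ATPD. Their median response at 2 h was 3.75 in bdr1,2,3 and 3.51 in the wild type, beside 2.69 in bdr1,2,3 and 2.90 in the wild type for the other 35 genes. PSAE2 and LHCB4.1, the genes with the smallest responses in bdr1,2,3, were among the 11, and the ranges of the 11 and of the 35 overlapped. A match to these letters is no evidence of binding.

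In the light, the genes lay lower in bdr1,2,3 than in the wild type. At 2 h, 19 of the 46 genes were called lower and none higher (background 8.67% higher and 10.6% lower), with a median log2 difference of -0.30 against -0.02 over all tested genes. All 46 estimates were below 0, and for 36 genes each bdr1,2,3 library lay below each wild type library. The background shares are of called genes. For separated or overlapping libraries no share over all tested genes is given, so those counts describe the set alone. At 4 h, 13 were called lower and none higher (7.86% higher and 8.67% lower), with a median of -0.24 against 0.01 and full separation for 32 genes. At an unadjusted p under 0.05 in edgeR, 35 genes passed at 2 h and 25 at 4 h, all of them lower. The background shares above are at an adjusted p, and none is given for this looser threshold. In darkness the genotypes differed less as a set, with 7 genes lower and 1 higher (8.04% higher and 11.3% lower), a median of -0.04 against -0.01, and overlapping libraries for 36 genes.

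The same-numbered libraries of both genotypes deviated together at 4 h. Their deviations from the group means correlated at 0.63, 0.41 and 0.19 over all genes, and a fit of those 6 libraries with the replicate number as a block called 41 of the 46 genes lower and none higher (14.2% of all genes higher and 15.2% lower). In each of 45 genes the lowest bdr1,2,3 library at 4 h was replicate 1, and in 40 genes replicate 1 was also the lowest wild type library. Without a block, 13 genes were called at 4 h, and the call count fell to 4 without bdr1,2,3 replicate 1, to 6 without wild type replicate 2 and to 7 without wild type replicate 3. With the block in the fit of the whole experiment 11 genes were called, and LHCA3 (adjusted p = 0.0549) and PSBP1 (adjusted p = 0.0661) lost their calls.

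Single libraries also moved the counts at 2 h and in the dark. The 2 h count was 9 without wild type replicate 2, 11 without wild type replicate 3, and 9 without bdr1,2,3 replicate 2 or replicate 3. When only the 2 h libraries were fitted, 33 genes were called lower and none higher (background 10.8% higher and 11.1% lower). In the dark, replicate 1 was the highest bdr1,2,3 library for 44 of the 46 genes, and without it 13 genes were lower and 1 higher. Without bdr1,2,3 dark replicate 3 the split turned round, with 2 genes lower and 8 higher. For fits that left out a library, shares of all genes called are not given, so these counts have no background. The dark count was 5 without wild type replicate 2 and 4 without wild type replicate 3.

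**Figure D3:**
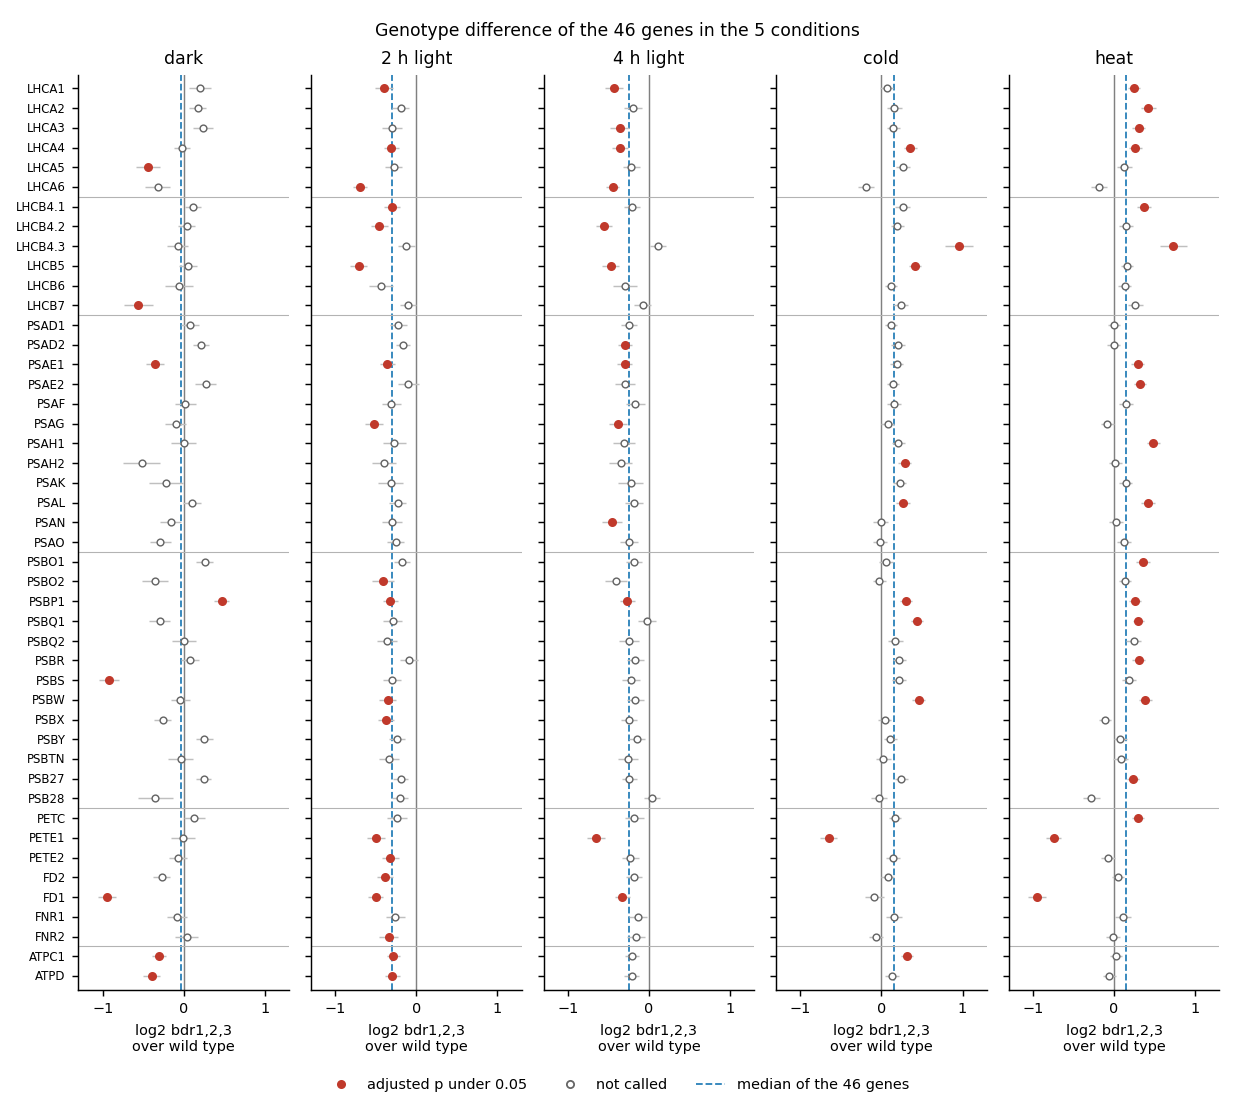
Log2 difference bdr1,2,3 minus wild type for each of the 46 genes in the 5 conditions, with called genes filled, standard errors as bars and the median of the 46 genes as a dashed line. The points lie below 0 throughout at 2 h and mostly above 0 in cold and heat, with FD1 and PETE1 low in 4 conditions each.

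LHCB5 (AT4G10340, chr4:6408007-6409849, plus strand), a monomeric antenna protein also called CP26, showed the largest deficit at 2 h. It had 1050, 952 and 881 CPM in bdr1,2,3 at 2 h, against 1417, 1765 and 1539 CPM in the wild type. At 4 h it had 1543, 1915 and 1814 CPM in bdr1,2,3 and 2291, 2508 and 2524 CPM in the wild type. In the dark it had 136, 114 and 96.9 CPM in bdr1,2,3 and 110, 111 and 115 CPM in the wild type. The genotypes overlapped in the dark and separated in the light, with log2 differences of -0.71 ± 0.10 at 2 h (SE, edgeR adjusted p = 2.61e-05), -0.47 ± 0.10 at 4 h (adjusted p = 0.00235) and 0.05 in the dark (adjusted p = 0.809).

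LHCA6 (AT1G19150), a linker between photosystem I and the NDH complex of cyclic electron flow, was the other gene of this size at 2 h. It had 40.3, 41.7 and 37.0 CPM in bdr1,2,3 against 56.4, 74.6 and 62.3 CPM in the wild type. Its log2 difference was -0.70 ± 0.09 at 2 h (SE, edgeR adjusted p = 2.14e-06), -0.45 ± 0.08 at 4 h (adjusted p = 0.000361) and -0.32 in the dark, where it was not called (adjusted p = 0.146). All bdr1,2,3 libraries were below all wild type libraries at both times of light.

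PETE1 (AT1G76100, chr1:28553883-28554930, minus strand) encodes the less expressed of the 2 plastocyanins, the copper proteins that carry electrons to photosystem I. It had 62.8, 55.7 and 50.3 CPM in bdr1,2,3 at 2 h, against 68.4, 88.3 and 82.0 CPM in the wild type. At 4 h it had 90.0, 110 and 102 CPM in bdr1,2,3 against 158, 160 and 159 CPM in the wild type. The libraries did not overlap, and the log2 differences were -0.50 ± 0.11 at 2 h (SE, edgeR adjusted p = 0.00382) and -0.65 ± 0.11 at 4 h (adjusted p = 0.000247). In the dark the genotypes overlapped, with a difference of -0.01 (adjusted p = 0.989).

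FD1 (AT1G10960, chr1:3664187-3665040, plus strand) passes electrons on from photosystem I and is the minor leaf ferredoxin beside FD2. It was lower in the mutant before and after light. In the dark it had 30.0, 24.1 and 23.2 CPM in bdr1,2,3 against 45.4, 57.2 and 47.6 CPM in the wild type, a log2 difference of -0.95 ± 0.11 (SE, edgeR adjusted p = 1.28e-06). At 2 h it had 465, 440 and 408 CPM in bdr1,2,3 against 579, 641 and 642 CPM in the wild type, a difference of -0.50 ± 0.09 (adjusted p = 0.00043). At 4 h it had 333, 415 and 423 CPM in bdr1,2,3 and 484, 498 and 488 CPM in the wild type, with -0.33 ± 0.09 (adjusted p = 0.0183). No library of the genotypes overlapped at any of the 3 times, although the call at 4 h was lost without bdr1,2,3 replicate 1 (adjusted p = 0.141) or wild type replicate 2 (adjusted p = 0.0654).

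PSBS (AT1G44575), which triggers the dissipation of excess light energy, and PSBP1 (AT1G06680), a subunit of the oxygen-evolving complex, differed in the dark in opposite directions. PSBS had 47.1, 40.0 and 34.6 CPM in bdr1,2,3 dark against 67.1, 91.3 and 73.1 CPM in the wild type, a log2 difference of -0.92 ± 0.12 (SE, edgeR adjusted p = 1.49e-05). PSBP1 had 348, 283 and 280 CPM in bdr1,2,3 dark against 221, 230 and 208 CPM in the wild type, a difference of 0.47 ± 0.09 (adjusted p = 0.00097). Both were separated by library. In the light PSBS was not called, at -0.31 at 2 h (adjusted p = 0.0597) and -0.22 at 4 h (adjusted p = 0.196), whereas PSBP1 was lower in bdr1,2,3, at -0.32 at 2 h and -0.27 at 4 h (adjusted p = 0.0497).

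**Figure D4:**
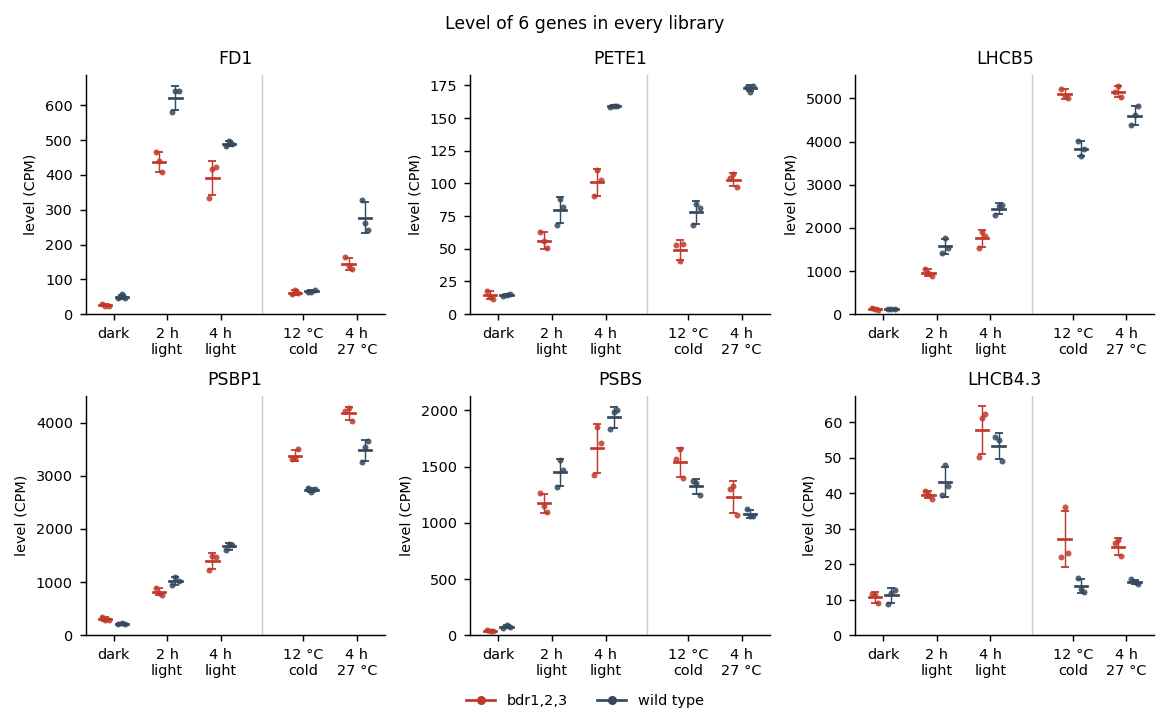
CPM of FD1, PETE1, LHCB5, PSBP1, PSBS and LHCB4.3 in every library (points), on a linear axis from 0, with bdr1,2,3 left of the wild type in each condition and group means with SD as bars. PETE1 is low in bdr1,2,3 in all conditions but dark, FD1 in all but cold, and LHCB4.3 is high in bdr1,2,3 in cold and heat.

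The other deficits were spread over the complexes. At 2 h the genes called lower in bdr1,2,3 were 3 of 6 LHCA, 3 of 6 minor LHCB, 2 of 12 PSA, 4 of 13 PSB, 5 of 7 electron transport and both ATP synthase genes. The PSA genes were PSAG, at -0.53 ± 0.11 (SE, edgeR adjusted p = 0.00189), and PSAE1, at -0.36, both peripheral subunits, and among the PSB genes PSBO2 had the largest difference, -0.41, but lost its call in 4 of the 6 fits that left out a 2 h library. Of the 19 calls at 2 h, 9 held whichever single library was left out: LHCA6, LHCB4.2, LHCB5, PSAE1, PSAG, PSBX, PETE1, FD2 and FD1. At 4 h the counts were 4 of 6 LHCA, 2 of 6 minor LHCB, 4 of 12 PSA, 1 of 13 PSB and 2 of 7 electron transport genes, and the calls that held throughout were those of LHCA6, LHCB4.2, LHCB5 and PETE1.

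LHCB4.2, a second CP29 antenna protein, had 641, 820 and 802 CPM at 4 h in bdr1,2,3 against 1068, 1120 and 1136 CPM in the wild type, a log2 difference of -0.55 ± 0.10 (SE, edgeR adjusted p = 0.000557). PSAN, a lumenal subunit at the plastocyanin docking site of photosystem I, had 747, 809 and 847 CPM in bdr1,2,3 at 4 h against 1031, 1208 and 1056 CPM in the wild type, a difference of -0.46 ± 0.12 (adjusted p = 0.0134), which lost its call without bdr1,2,3 replicate 1 (adjusted p = 0.0745) or wild type replicate 2 (adjusted p = 0.0733). In the dark the other genes called lower in bdr1,2,3 were LHCB7 (-0.56 ± 0.18), LHCA5 (-0.44 ± 0.15), ATPD (-0.40 ± 0.11), PSAE1 (-0.35 ± 0.11) and ATPC1 (-0.30). Each of these 5 lost its call without at least 1 library, leaving FD1, PSBS and PSBP1 as the dark calls that held.

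The difference between the genotype effects in light and in dark was tested as an interaction, and the tests at 2 and 4 h share the dark libraries. At 2 h, 2 of the 46 genes were called, both with a more negative effect in the light (background 1.1% higher and 0.743% lower), and the median was -0.30 against -0.01. They were LHCB5, at -0.76 ± 0.15 (SE, edgeR adjusted p = 0.00804), and PSBP1, at -0.79 ± 0.13 (adjusted p = 0.00146). At 4 h, 2 were called higher and 3 lower (0.999% higher and 1.08% lower), with a median of -0.23 against 0.02. PSBP1 was at -0.73 ± 0.13 (adjusted p = 0.00277), LHCB4.2 at -0.59 ± 0.15 (adjusted p = 0.0408) and PSAD2 at -0.51 ± 0.13 (adjusted p = 0.0413), while PSBS was at 0.70 ± 0.17 (adjusted p = 0.0303) and FD1 at 0.62 ± 0.15 (adjusted p = 0.0243), whose dark deficits were larger than their deficits in the light.

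These counts depended on the dark libraries of the mutant. Without bdr1,2,3 dark replicate 3, the lowest dark library for 44 of the 46 genes, 14 genes were called at 2 h and 15 at 4 h. Without bdr1,2,3 dark replicate 1 the counts were 4 at 2 h and 3 at 4 h. Shares of all genes called in these fits are not given. The count at 4 h was 1 without replicate 2 of either dark group, without wild type 4 h replicate 2 or 3, or without bdr1,2,3 4 h replicate 3, and it was 2 without wild type 4 h replicate 1. It was 3 without wild type dark replicate 3 or bdr1,2,3 4 h replicate 1 or 2. The calls of LHCB5 and PSBP1 at 2 h and of PSBP1 at 4 h held whichever library was left out, and the other 4 calls at 4 h did not. At 2 h, LHCB4.2 was at -0.49 (adjusted p = 0.0992), PSAD2 at -0.38 (adjusted p = 0.162), PSBS at 0.62 (adjusted p = 0.0629) and FD1 at 0.44 (adjusted p = 0.13), and LHCB5 at 4 h was at -0.52 (adjusted p = 0.0805).

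Root marker genes moved with genotype in the same libraries. Of the root list of 8 genes, 5 were tested, of which 3 were higher in bdr1,2,3 in the dark and at 2 h and 2 at 4 h. The list summed to 519 to 556 CPM in bdr1,2,3 dark against 420 to 501 CPM in wild type dark, to 338 to 361 CPM in bdr1,2,3 against 329 to 345 CPM in the wild type at 2 h, and to 345 to 372 CPM in bdr1,2,3 against 317 to 333 CPM in the wild type at 4 h. The root hair genes COBL9, EXPA7 and PRP3 were below the filter on low counts. Of the seed storage list, CRA1 and CRU3 were tested and neither was called in the dark or the light, and the list summed to 4.15 to 37.6 CPM in bdr1,2,3 dark against 0.898 to 8.92 CPM in wild type dark. The part of tissue composition in the differences above was not tested.

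Warming moved the 46 genes in both directions. In bdr1,2,3, 19 genes were higher and 8 lower in heat than in cold (background 29.4% higher and 31.2% lower), with a median of 0.17 against -0.02. In the wild type 23 were higher and 7 lower (29.3% and 28.5%), with a median of 0.18 against 0.00. Of these, 16 genes were higher and 7 lower in both genotypes, and 12 were called in neither. The 46 genes took 10.7% ± 0.33 of the counts in bdr1,2,3 heat against 9.26% ± 0.11 in bdr1,2,3 cold, and 9.69% ± 0.44 in wild type heat against 8.56% ± 0.19 in wild type cold (SD, n = 3 each).

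FD1 had the largest response to heat in both genotypes. It had 163, 139 and 128 CPM in bdr1,2,3 heat against 57.5, 68.8 and 59.9 CPM in bdr1,2,3 cold, a log2 fold change of 1.21 ± 0.11 (SE, edgeR adjusted p = 1.28e-07). In the wild type it had 327, 262 and 241 CPM in heat against 64.7, 63.8 and 68.9 CPM in cold, a fold change of 2.07 ± 0.12 (adjusted p = 4.68e-10). The bdr1,2,3 heat libraries thus lay between the cold libraries and the wild type heat libraries, with no overlap. The interaction was -0.86 ± 0.16 (edgeR adjusted p = 0.0154), the only 1 of the 46 that was called (background 0.488% higher and 0.529% lower, median -0.03 against -0.02), and it was not called without wild type cold replicate 3 (adjusted p = 0.0598).

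Both plastocyanins rose with heat: PETE1 by 1.06 ± 0.10 in bdr1,2,3 and 1.15 ± 0.10 in the wild type, and PETE2 by 0.80 in bdr1,2,3 and 1.02 ± 0.09 in the wild type (log2, SE). LHCA1 rose by 0.82 ± 0.08 in bdr1,2,3 and 0.64 in the wild type, LHCB4.1, which encodes another CP29 protein, by 0.61 in bdr1,2,3 and 0.50 in the wild type, and PSBQ1 of the oxygen-evolving complex by 0.52 in bdr1,2,3 and 0.66 in the wild type. PSAE2, the weakest light responder, led the PSA genes in bdr1,2,3 with 0.57 ± 0.07. LHCA5, an antenna protein present in low amounts, fell by 0.81 in bdr1,2,3 and by 0.68 in the wild type, PSB28 fell by 0.80 in bdr1,2,3 and by 0.54 in the wild type, FNR2 fell by 0.59 in bdr1,2,3 and by 0.64 in the wild type, and PSAO, a photosystem I subunit, fell by 0.39 in bdr1,2,3 and by 0.53 in the wild type. ATPD rose by 0.39 in the wild type (adjusted p = 0.000546) and by 0.21 in bdr1,2,3 (adjusted p = 0.0379), a call that was lost in 4 of the 6 fits that left out a bdr1,2,3 library.

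In the seedlings of the heat shock experiment, most called genes were higher in bdr1,2,3 than in the wild type. In cold 9 genes were higher and 1 lower (background 4.57% higher and 6.36% lower), with a median of 0.16 against 0.01, and in 29 genes all bdr1,2,3 libraries exceeded all wild type libraries. In heat 17 were higher and 2 lower (8.53% and 10.9%), with a median of 0.14 against -0.01, and 21 genes separated upward. No share of all tested genes separated in this way is given, so the 29 and 21 describe the set alone. Both conditions shared 6 of the genes called higher, and PETE1 was called lower in both. The count in cold was 6 without wild type cold replicate 3, and that in heat was 9 higher and 3 lower without replicate 1 of both heat groups.

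LHCB4.3 (AT2G40100), the third CP29 gene, showed the largest difference upward in both conditions. It had 22.0, 36.2 and 23.3 CPM in bdr1,2,3 cold against 16.2, 13.1 and 12.3 CPM in wild type cold, and 25.9, 26.8 and 22.3 CPM in bdr1,2,3 heat against 15.8, 14.9 and 14.4 CPM in wild type heat. No libraries overlapped, with log2 differences of 0.95 ± 0.17 in cold (SE, edgeR adjusted p = 0.00179) and 0.73 ± 0.17 in heat (adjusted p = 0.00652). Without replicate 1 of both heat groups the difference in heat was 0.74 (adjusted p = 0.0642). In cold it was the lowest of the 46 genes per kb of exon, at 18.7 ± 5.4 CPM per kb in bdr1,2,3 and 9.57 ± 1.43 CPM per kb in the wild type (SD, n = 3 each).

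LHCB5, the gene most reduced in the mutant at 2 h of light, was higher in the mutant in cold. It had 5226, 5055 and 5009 CPM in bdr1,2,3 cold against 4016, 3669 and 3827 CPM in wild type cold, a log2 difference of 0.41 ± 0.07 (SE, edgeR adjusted p = 0.00101). In heat the libraries were also separated, at 5141, 5294 and 5032 CPM in bdr1,2,3 against 4376, 4619 and 4817 CPM in the wild type, but the difference of 0.16 was not called (adjusted p = 0.132).

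PSBW, a small photosystem II subunit, was higher by 0.46 ± 0.08 in cold (SE, edgeR adjusted p = 0.00074) and by 0.39 ± 0.08 in heat (adjusted p = 0.00207), and PSBQ1 by 0.43 ± 0.07 in cold and 0.30 in heat. PSAH1 (0.49 ± 0.08, adjusted p = 0.000181) and LHCA2 (0.42 ± 0.09, adjusted p = 0.00327) followed LHCB4.3 in heat, together with PSAL (0.42), all parts of photosystem I. By complex, the genes higher in heat were 4 of 6 LHCA, 2 of 6 minor LHCB, 4 of 12 PSA, 6 of 13 PSB and 1 of 7 electron transport genes. In cold LHCA4 (0.35 ± 0.08), ATPC1 (0.32 ± 0.07) and PSAH2 (0.29 ± 0.08) led their complexes, and of these only ATPC1 kept its call whichever library was left out.

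The electron carriers PETE1 and FD1 went the other way. PETE1 had 53.0, 40.7 and 53.9 CPM in bdr1,2,3 cold against 67.9, 84.1 and 81.4 CPM in wild type cold, a log2 difference of -0.65 ± 0.10 (SE, edgeR adjusted p = 0.00025). In heat it had 104, 107 and 97.4 CPM in bdr1,2,3 against 173, 170 and 175 CPM in the wild type, with -0.75 ± 0.10 (adjusted p = 2.91e-05). FD1 overlapped between genotypes in cold, with a difference of -0.09 (adjusted p = 0.699), and separated in heat, with -0.95 ± 0.11 (adjusted p = 9.94e-06). Over the 5 conditions PETE1 and FD1 were each called lower in 4, more than any other gene of the set, and 10 genes were called in none: LHCB6, PSAD1, PSAF, PSAK, PSAO, PSBQ2, PSBY, PSBTN, PSB28 and FNR1. LHCA6, which was low in bdr1,2,3 in the light, was at -0.19 in cold and in heat without a call.

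Seed storage markers were higher in the mutant in the heat shock experiment, with 2 of 4 genes called in cold and 3 of 4 in heat. They summed to 11.9 to 15.5 CPM in bdr1,2,3 cold against 2.75 to 8.79 CPM in wild type cold, and to 18.9 to 23.1 CPM in bdr1,2,3 heat against 1.94 to 5.96 CPM in wild type heat. None of the 7 root markers tested was called by edgeR in either condition (2 in cold and 4 in heat had an unadjusted p under 0.05), with medians of -0.17 in cold and -0.73 in heat and sums of 59.8 to 67.0 CPM in bdr1,2,3 cold against 69.7 to 79.8 CPM in wild type cold, and of 44.3 to 53.8 CPM in bdr1,2,3 heat against 49.9 to 59.95 CPM in wild type heat. Their part in the differences above was not tested.

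The 9 pairs of paralogs that encode the same kind of subunit changed their balance with light and, for some pairs, with genotype. Shares are the length-scaled CPM of the first gene of a pair as a percent of both, and reads of near-identical copies may have been divided unevenly by the counting. PSAE1 made up 14.0% of the PSAE pair in bdr1,2,3 dark and 64.0% at 2 h, and 20.0% in wild type dark and 67.9% at 2 h. PSAH turned the other way: PSAH1 made up 75.7% in bdr1,2,3 dark and 23.3% at 2 h, and 67.8% in wild type dark and 21.6% at 2 h. PSBO1 fell to 64.5% of its pair at 4 h in bdr1,2,3, against 93.0% in the dark, and to 60.9% at 4 h in the wild type, against 89.6% in the dark.

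**Figure D5:**
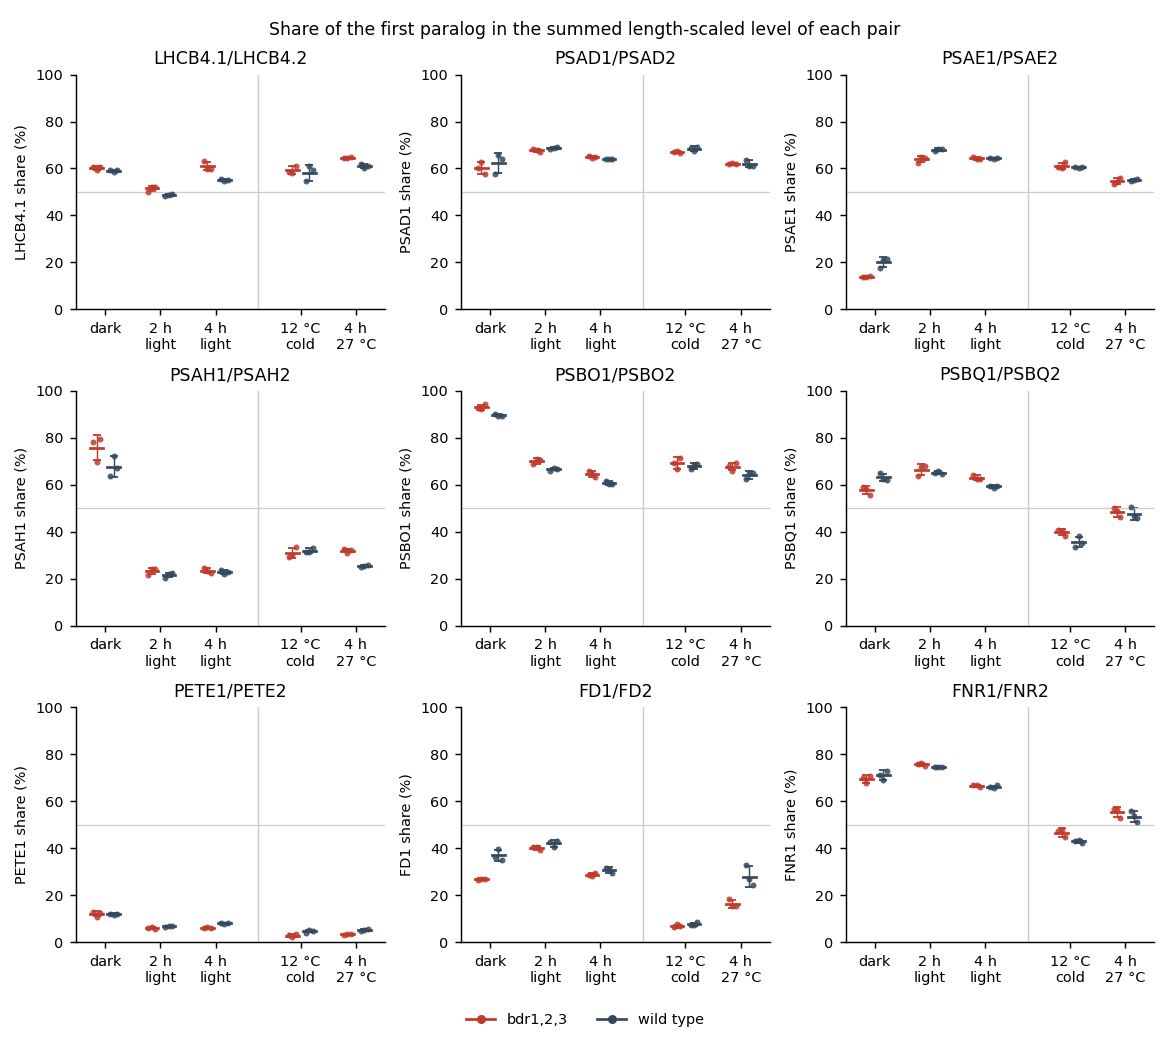
Share of the first gene in each of the 9 paralog pairs, in percent of the length-scaled CPM of both, in every library, with bdr1,2,3 left of the wild type in each condition and group means with SD as bars. The PSAE and PSAH pairs cross 50% between dark and light, and the PETE1 share is lower in bdr1,2,3 than in the wild type from 2 h of light on and in cold and heat.

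Genotype moved the PETE and FD pairs most. PETE1 made up 5.9%, 6.3% and 6.0% of plastocyanin in bdr1,2,3 at 4 h against 8.1%, 7.7% and 8.2% in the wild type, and 3.2%, 3.3% and 3.4% in bdr1,2,3 heat against 4.8%, 5.2% and 5.4% in wild type heat. FD1 made up 26.3%, 27.0% and 27.0% of leaf ferredoxin in bdr1,2,3 dark against 36.2%, 39.6% and 34.9% in the wild type, and 18.2%, 15.3% and 15.2% in bdr1,2,3 heat against 32.8%, 26.6% and 24.2% in the wild type. The log2 ratio of PETE1 to PETE2 differed by -0.43 at 4 h, -0.80 in cold and -0.67 in heat, and that of FD1 to FD2 by -0.67 in the dark and -0.99 in heat, with separate libraries in each case. PETE2 by itself was called between genotypes only at 2 h (-0.32), and FD2 only at 2 h (-0.39). Other pairs were separated by library as well, and those with a difference over 0.20 follow. The log2 ratio of PSAE1 to PSAE2 differed by -0.62 in the dark and -0.25 at 2 h. That of PSBO1 to PSBO2 was higher in bdr1,2,3 by 0.64 in the dark, 0.24 at 2 h, 0.22 at 4 h and 0.23 in heat. The PSBQ1 to PSBQ2 ratio changed direction, with -0.33 in the dark, 0.23 at 4 h and 0.26 in cold. The LHCB4.1 to LHCB4.2 ratio was higher by 0.35 at 4 h and 0.22 in heat, PSAH1 to PSAH2 by 0.47 in heat, and FNR1 to FNR2 by 0.22 in cold.

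The study asked whether genes reduced in the mutant lie close behind another gene on the same strand. Of the 46 genes, 42 did not overlap their upstream protein-coding neighbour in the TAIR10.1 annotation. Among the 25891 nuclear protein-coding genes that did not overlap theirs, the neighbour was on the same strand for 53.3%, and on the same strand within 600 bp for 22.1%. Among the 42, the neighbour was on the same strand for 19 (45.2%) and on the same strand within 600 bp for 12 (28.6%). Of these 12, 8 were lower in bdr1,2,3 at 2 h (median -0.37) and 6 at 4 h (median -0.31). Over all 4313 tested genes with such a neighbour, 19.3% were lower at 2 h (median -0.08) and 17.9% at 4 h (median -0.06). Of the other 30, 8 were lower at 2 h (median -0.30) and 3 at 4 h (median -0.22), while over all 13586 tested genes of that class 7.39% were lower at 2 h and 5.31% at 4 h. In heat 4 of the 12 were higher and 1 lower, where 7.8% of all genes with such a neighbour were higher and 20.9% lower. Of the 30, 11 were higher in heat and none lower, where 8.62% of all genes of that class were higher and 7.36% lower. In the dark 1 of the 12 was lower and none higher (6.56% higher and 18% lower over the class). Of the 30, 4 were lower in the dark and none higher (8.58% and 8.85%). In cold 3 of the 12 were higher and 1 lower (3.52% and 14.1%). Of the 30, 5 were higher in cold and none lower (4.73% and 3.54%). Shares over 12 and 30 genes are descriptions, and the split between the classes was not tested.

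The stretch between the neighbour's end and the gene's start is printed for 5 genes, a choice made after their values were seen. The 5 were called lower at both 2 and 4 h and had a same-strand neighbour with a gap of at most 250 bp. LHCA6, LHCA4, PSAE1, PSBP1 and FD1 were also called lower at both times. The neighbour of LHCA6, AT1G19140, at 20 bp, was on the opposite strand. That of LHCA4 was on the same strand at 1051 bp. PSAE1 overlapped an upstream gene on the opposite strand, and PSBP1 and FD1 overlapped one on the same strand. I-box letters are in capitals.
LHCB5, behind AT4G10330 (chr4:6407960-6408006, plus strand): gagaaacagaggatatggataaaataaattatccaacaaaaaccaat
PETE1, behind AT1G76110 (chr1:28554931-28555033, minus strand): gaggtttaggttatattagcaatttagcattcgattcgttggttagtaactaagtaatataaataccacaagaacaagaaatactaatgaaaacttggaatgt
LHCB4.2, behind AT3G08930 (chr3:2717367-2717556, plus strand): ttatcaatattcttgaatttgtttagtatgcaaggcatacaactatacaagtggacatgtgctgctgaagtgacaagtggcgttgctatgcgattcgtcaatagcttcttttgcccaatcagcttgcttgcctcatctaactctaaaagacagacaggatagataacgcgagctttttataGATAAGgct
LHCA1, behind AT3G54900 (chr3:20341177-20341356, minus strand): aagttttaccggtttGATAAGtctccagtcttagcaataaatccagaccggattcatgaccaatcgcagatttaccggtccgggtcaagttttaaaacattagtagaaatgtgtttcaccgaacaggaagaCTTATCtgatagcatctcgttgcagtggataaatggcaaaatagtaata
PSAG, behind AT1G55675 (chr1:20803450-20803660, minus strand): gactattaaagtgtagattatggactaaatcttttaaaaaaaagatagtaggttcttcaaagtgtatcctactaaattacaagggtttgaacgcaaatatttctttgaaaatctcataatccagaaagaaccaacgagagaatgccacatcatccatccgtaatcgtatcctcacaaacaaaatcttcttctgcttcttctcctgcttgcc

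The gap before LHCB5 was thus 47 bp with 72.3% A and T, and that before PETE1 103 bp with 70.9%, with no I-box in either. The upstream genes were compared between genotypes as well. AT4G10330, before LHCB5, was at 0.08 at both 2 h (edgeR adjusted p = 0.741) and 4 h (adjusted p = 0.763). AT1G76110, before PETE1, was lower in bdr1,2,3, at -0.57 at 2 h (adjusted p = 0.000387), -0.42 at 4 h (adjusted p = 0.00332) and -0.22 in heat (adjusted p = 0.0377), and at 0.04 in cold (adjusted p = 0.802). AT3G08930, before LHCB4.2, was at -0.018 at 2 h (adjusted p = 0.889) and -0.11 at 4 h (adjusted p = 0.276). AT3G54900, before LHCA1, was lower in bdr1,2,3 at 2 h, at -0.27 (adjusted p = 0.0436), and was at -0.26 at 4 h (adjusted p = 0.0529).

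The neighbour of PSAG, AT1G55675, at 211 bp, was lower in bdr1,2,3 in all 5 conditions, between -1.35 and -2.10. Over the 12 neighbours, 1 was called higher and 4 lower at 2 h, and none higher and 3 lower at 4 h. FD1 overlapped its upstream gene AT1G10950 by 78 bp on the same strand, and AT1G10950 itself was not called in any condition, with differences of 0.07 to 0.18. PSAD2, PSBP1 and PSAE1 also overlapped their upstream gene. With these, 15 of the 46 genes overlapped another gene, 13 of them on the opposite strand, so reads in the shared stretches cannot be assigned with certainty.

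The major antenna genes of photosystem II, LHCB1 to LHCB3, gave a measure of how the rest of the pathway moved. All 9 rose with light, with median log2 fold changes at 2 h of 6.03 in bdr1,2,3 and 6.36 in the wild type. At 2 h and at 4 h 7 of the 9 were lower in bdr1,2,3, with medians of -0.46 and -0.42, while in cold 6 were higher and none lower, with a median of 0.49, and in heat 1 was higher and none lower. Near-identical LHCB1 copies make the values of single LHCB1 genes uncertain. Another 20 genes of the pathway, among them assembly factors, kinases and proteins of cyclic electron flow, responded less. Of the 18 tested, 13 rose and 3 fell at 2 h in bdr1,2,3, and 13 rose and 2 fell in the wild type, with medians of 1.06 in each genotype.

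PGRL1A, a protein of cyclic electron flow, had the largest light response of those 18, 3.48 in bdr1,2,3 and 3.64 in the wild type at 2 h. Between genotypes, none of the 18 was higher and 2 were lower in bdr1,2,3 at 2 h (background 8.67% higher and 10.6% lower). At 4 h 2 were higher and 3 lower (7.86% and 8.67%). Of the 19 tested in the heat shock experiment, 4 were higher and none lower in cold (background 4.57% higher and 6.36% lower). In heat 7 were higher and 1 lower (8.53% and 10.9%). PGRL1A was higher in bdr1,2,3 by 0.57 in cold and 0.33 in heat, and its partner PGR5 by 0.32 in cold and 0.28 in heat.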

How the data were processed

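RNA from seedlings was made into libraries with a stranded mRNA kit and sequenced by the authors. Per the labels and the submitters' processing notes, reads were aligned to TAIR10 with STAR 2.5.2b, handled with SAMtools 1.3.1 and counted with featureCounts, with R 3.3.2 and DESeq2 1.14.1 downstream. The authors deposited raw counts per gene for 2 experiments, with 33602 genes each, and normalized tables, which were not used here. The strand setting of the counting is not given in the sources used here. No column of counts was left unused (0).

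The raw counts were tested separately in each experiment with R 4.3.3 and edgeR 4.0.16 (filterByExpr, TMM, glmQLFit with robust estimation, glmQLFTest, limma 3.58.1), with a coefficient per group and Benjamini-Hochberg adjustment. After the filter, 19521 genes of the photomorphogenesis experiment and 19473 of the heat shock experiment were tested in 16 comparisons: light minus dark, 4 h minus 2 h and heat minus cold in each genotype, bdr1,2,3 minus wild type in each condition, and the interaction, the genotype effect after a treatment minus that before it. P-values are two-sided, and measure the spread between 3 plates per group. CPM used TMM effective library sizes, and levels per kb the exon length in TAIR10.1. Positions, neighbours and sequences came from the RefSeq annotation of TAIR10.1. A chi-square test of counts compared replicates. Counts carry no molecular identifiers, so small counts cover counting error only.

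The 46 genes, the other pathway genes, the LHCB1 to LHCB3 genes, and the root and seed markers were chosen with earlier results of these data known. Named for each comparison were the 3 called genes that rose most and the 3 that fell most, the called gene with the largest change in each complex, the genes with the highest and lowest level per kb in each complex, the 9 paralog pairs, and the genes not called where 5 or fewer. Genes outside this rule, such as those followed over all conditions, were named after their values were seen.

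Same-numbered plates are not stated to belong together. Their deviations from the group means were correlated over genes for each comparison, and every pair exceeded 0.1 only for bdr1,2,3 minus wild type at 4 h (0.63, 0.41 and 0.19), where a blocked fit is given beside the result. The alternatives were DESeq2 1.42.0, DESeq2 size factors in edgeR, no filter, a replicate block, a fit of only the groups compared, a fold change minimum of 1.5, and leaving out each library in turn. The edgeR test was checked on simulated counts with known changes.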

Additional observations from a re-analysis of the deposited data

Results flagged for a closer look

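For 6 genes the genotype effect after treatment differed from that before it by the interaction test (edgeR quasi-likelihood, Benjamini-Hochberg adjusted over all genes tested). The tests at 2 and 4 h share the dark libraries. At 2 h of light LHCB5 differed by -0.76 (adjusted p = 0.00804) and PSBP1 by -0.79 (adjusted p = 0.00146), that is, bdr1,2,3 was lower relative to the wild type in the light than in the dark. At 4 h PSBP1 differed by -0.73 (adjusted p = 0.00277), LHCB4.2 by -0.59 (adjusted p = 0.0408) and PSAD2 by -0.51 (adjusted p = 0.0413). PSBS differed by 0.70 (adjusted p = 0.0303) and FD1 by 0.62 (adjusted p = 0.0243) at 4 h, since both had a larger deficit in dark bdr1,2,3 than in the light. In heat against cold FD1 differed by -0.86 (adjusted p = 0.0154), and with wild type cold replicate 3 left out its adjusted p was 0.0598. PSBP1 and PSAD2 overlap their upstream gene on the same strand, and FD1 likewise, so reads of the shared stretch may be counted for either gene.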

How the results depend on the processing

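All 46 genes were called higher in light than in dark under the alternatives run, except at 2 h in bdr1,2,3, where 45 were called with a fold change minimum of 1.5 and in the fit of only the groups compared, which lost PSAE2 (adjusted p = 0.0559). A fold change minimum of 1.5 left 29 calls for 4 h against 2 h in the wild type, 2 between genotypes in the dark, 2 at 2 h, 1 at 4 h, 2 in cold and 3 in heat, and 9 for heat against cold in bdr1,2,3 and 7 in the wild type. DESeq2 called 17 genes between genotypes in cold, and 4 interactions at 2 h, 11 at 4 h and 2 in heat. Counts under the alternatives in this section are given without the share of all genes called in the same fit. Fits of only the groups compared called 33 genes between genotypes at 2 h, 23 at 4 h, and 1 interaction at 4 h; the cause of these shifts was not tested. With the replicate block in the whole fit, the interaction count at 4 h was 3 and no other count moved by over 1.5 times; the blocked fit of the 6 libraries at 4 h, chosen after seeing the data, called 41. In every other comparison at least 1 same-numbered pair of libraries correlated at under 0.1. Each number still correlated best with its own for bdr1,2,3 minus wild type in the dark (0.18, 0.03 and 0.28). The same held for heat minus cold in bdr1,2,3 (0.09, 0.11 and 0.18), so weak pairing may be present there. Leaving out replicate 1 of both heat groups, also chosen after seeing the data, gave 12 calls between genotypes in heat. Scaling by the plain total count moved the summed level of the genes to 85608 CPM in wild type cold and 106663 CPM in bdr1,2,3 heat. Leaving out 1 library at a time gave 4 to 14 calls between genotypes in the dark, 9 to 23 at 2 h, 4 to 13 at 4 h, 6 to 10 in cold and 15 to 20 in heat. It gave 2 to 14 interactions at 2 h, 1 to 15 at 4 h and 0 to 1 in heat; the 0 arose without wild type cold replicate 3, where FD1 had an adjusted p of 0.0598. Calls that held whichever single library was left out were 3 of 8 in the dark, 9 of 19 at 2 h and 4 of 13 at 4 h. They were 6 of 10 in cold and 14 of 19 in heat. In heat 9 of the 19 also held in the other alternative fits, the fold change minimum aside. The interaction of LHCB4.3 in heat, -0.22 and not called (adjusted p = 0.753), ranged from -0.36 without bdr1,2,3 cold replicate 1 to 0.028 without bdr1,2,3 cold replicate 2. PSB28, LHCA6 and LHCB7 were below 10 CPM in the dark in both genotypes, so depth limits their dark values most.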
